A study of Mus musculus with 6 samples.

Results

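The SLC25 mitochondrial carriers were taken from the table of normalized counts as every gene of type protein coding whose symbol begins with Slc25a and a digit, which gave 47 of 56884 genes. Of these, 42 were tested and 5 (Slc25a21, Slc25a31, Slc25a41, Slc25a48 and Slc25a54) had 0 reads in all 6 libraries. No member with reads fell below the filter, for which 3 of the 6 libraries had to hold a normalized count of 1 or more. The libraries came from mouse bone marrow neutrophils, sorted as mature cells by the surface proteins CD101 and Ly6G and then kept in culture. In 3 libraries the culture contained DKK1 (Dickkopf-1), a secreted inhibitor that blocks the Wnt co-receptors, and the 3 control libraries came from the same sorted cell type cultured without it. All 6 thus share the sort and a culture outside the animal, and none is labelled as uncultured cells. The strain, age and sex of the mice, the dose of DKK1, the culture time and the strandedness of the libraries were not given in the sources used here.

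Most carriers of this family are small proteins of the mitochondrial inner membrane, built from repeats of paired membrane helices. They move 1 kind of metabolite across the membrane or swap it for another. They bring in ADP, phosphate, iron, coenzymes, acylcarnitines and amino acids, and send out ATP, citrate and other products of the matrix. All are encoded in the nucleus, and those of the inner membrane are imported through the translocases of the outer and inner mitochondrial membranes. Mature neutrophils draw most of their ATP from glycolysis and hold few mitochondria, while carriers for iron and glycine are best known for their part in heme synthesis of red cell precursors.

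Reads per library ranged from 8688911 to 9851961 in control and from 5188116 to 8749228 with DKK1, and 15610 to 16751 genes were detected. DKK1 library 2, the shallowest, stood apart: chi-square per degree of freedom against its group was 12.5 and 13.6, against 2.96 for the other DKK1 pair and 2.17 to 2.24 for control pairs. Of 15 carriers with a DKK1 mean of at least 100, this library was the highest of the 3 DKK1 libraries in 10 and the lowest in 2. Nothing in the labels says that libraries came from separate animals or cultures, so the p-values measure only how far these libraries differ among themselves, and that spread may be technical. The labelled cell type was checked against its markers, and the DKK1 libraries went against it. Of 12 neutrophil markers 11 fell and Camp did not pass, and their summed normalized count was 691378 to 716974 in control and 3415 to 3858 with DKK1. Of 11 tested macrophage markers 4 rose (Cd68, Adgre1, Ms4a7 and Vcam1), 4 fell (Csf1r, C1qa, C1qb and C1qc) and 3 did not pass. Sums were 4819 to 5092 in control and 15388 to 15490 with DKK1, where C1qa and Timd4 stood at 0. Cd68, at 902 ± 43.7 in control and 10121 ± 286 with DKK1, made up most of the DKK1 sum. With equal totals 5 macrophage markers were higher and 1 (C1qa) lower, Csf1r, C1qb and C1qc no longer passing. Of 11 tested erythroid markers 1 rose (Tfrc, the transferrin receptor) and 7 fell, with Epor and Klf1 among the markers at 0 with DKK1. B cell markers summed to 1507 to 1613 in control and 42.6 to 119 with DKK1, and those of T and NK cells to 48.3 to 79.3 and 0 to 2.98. In control most of each sum was 1 gene, Ighm at 1458 ± 70.8 and Cd3d at 58.1 ± 14.5. Only 2 of the 8 T and NK cell markers were tested. In bulk RNA, fewer cells of a type and less RNA per cell cannot be told apart, and a difference in the cells that made up the libraries cannot be told apart from a response to DKK1. Its part in the changes of the carriers was not tested.

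The carriers did not move as a block. Of 42 tested members, 14 were higher with DKK1, 17 lower and 11 did not pass (limma on log2(normalized count + 1), Benjamini-Hochberg adjusted over 16265 genes). Across all genes tested, 35.1% were higher and 36.1% lower, so the members' counts lie near the background. The median log2 change of the members was -0.20, with -0.03 over all genes; with libraries scaled to equal totals both turned positive, 0.33 and 0.44. That scaling raised the median change of all genes by 0.47. It gave 19 members higher, 13 lower and 10 not passed, beside 43.6% and 29.2% of all genes higher and lower. Under it the calls of Slc25a3, Slc25a36, Slc25a29 and Slc25a42 as lower were lost, and Slc25a14, Slc25a15, Slc25a33, Slc25a38 and Slc25a51 became higher. Without DKK1 library 2, 13 members were higher and 18 lower, beside 5651 and 5895 of the 16265 genes.

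**Figure D1:**
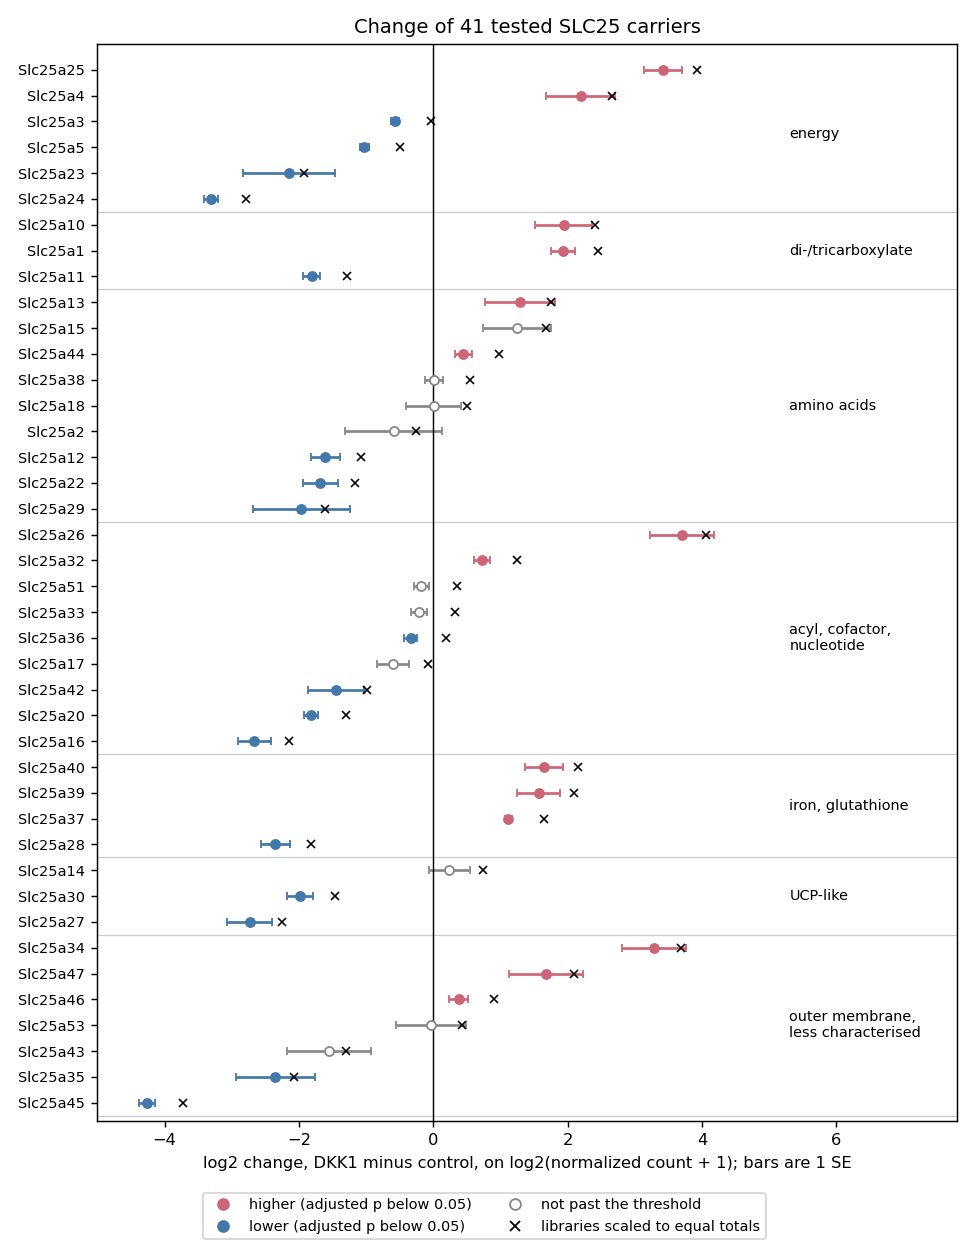
Log2 change of 41 tested SLC25 carriers, DKK1 minus control, by role, with bars of 1 SE; crosses give the change with libraries scaled to equal totals. Changes run from -4.25 (Slc25a45) to 3.70 (Slc25a26), and the crosses lie to the right of the points, which turns the median from -0.20 to 0.33.

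Among the 21 members with a mean of at least 100 in either group, 7 rose, 11 fell and 3 did not pass, where 43.8% and 44.8% of the 7617 genes at that level were higher and lower, so these counts too lie near the background. Of the 42 tested members 33 had groups that did not overlap, beside 73.9% of all genes tested. Of the 21 less abundant members 7 rose, 6 fell and 8 did not pass, where 27.4% and 28.4% of the 8648 genes below that level were higher and lower.

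**Figure D2:**
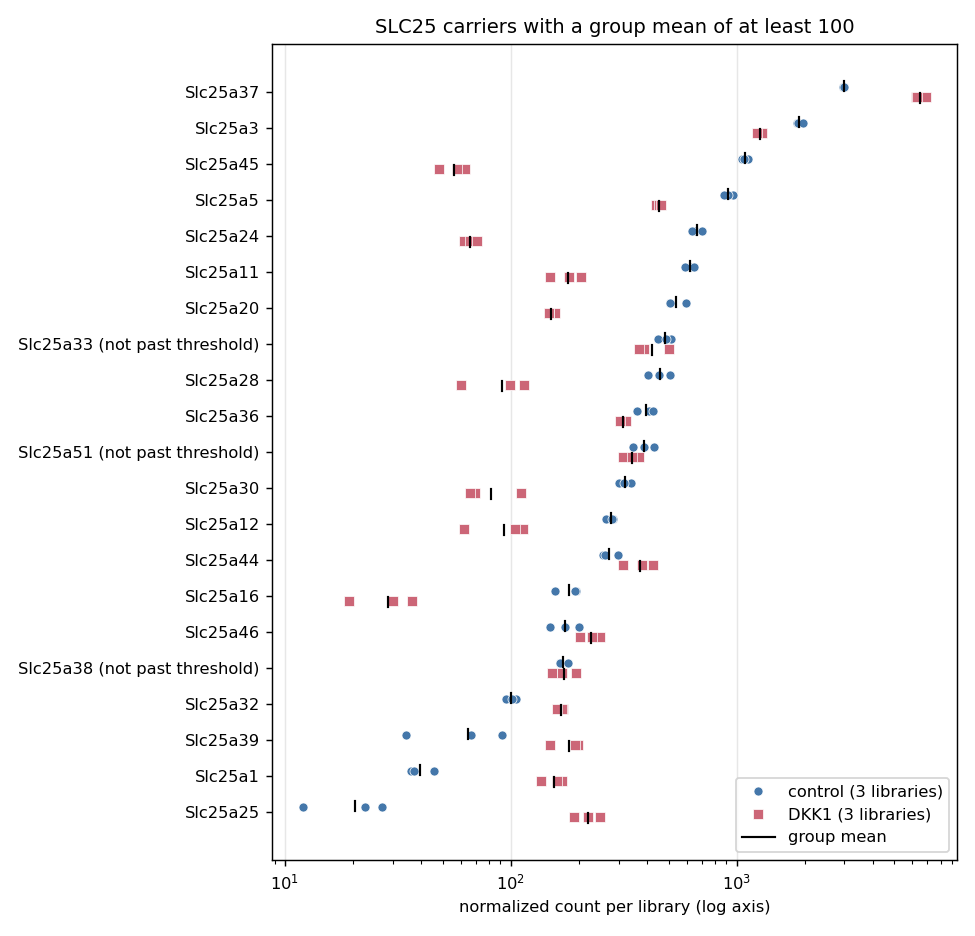
Normalized count (log axis) in each of the 3 control and 3 DKK1 libraries for the 21 SLC25 carriers with a group mean of at least 100; black marks are group means. Slc25a37 reaches 6229 to 6916 with DKK1, and Slc25a45 drops from 1053 to 1124 in control to 48.1 to 62.6.

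Per kilobase of exon, the control libraries were led by Slc25a5, an ADP/ATP carrier, at 558 ± 26.0 normalized counts per kb (SD, n = 3), followed by Slc25a37, mitoferrin-1, at 495 ± 4.62. Slc25a45 came next at 393 ± 13.0, and then Slc25a3, the phosphate carrier, at 341 ± 10.7 and Slc25a11, the oxoglutarate carrier, at 294 ± 14.7. With DKK1 the order changed: Slc25a37 stood first at 1076 ± 63.3 per kb, ahead of Slc25a5 at 274 ± 7.76 and Slc25a3 at 229.7 ± 6.39. Slc25a3 and the fourth, Slc25a33 at 223 ± 38.2 per kb, did not differ beyond their spread. The fifth and sixth were Slc25a44 at 104 ± 15.8 and Slc25a11 at 84.1 ± 13.0. Their SD ranges overlapped, but per kb Slc25a44 was the higher in every DKK1 library. Slc25a45 dropped from rank 3 to rank 18, at 20.4 ± 2.69 per kb, and Slc25a24 from rank 7 to rank 19. These levels rest on exon lengths of GENCODE M21 and on the authors' scaling, which sets the levels of the groups against each other but not the order within a group.

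**Figure D3:**
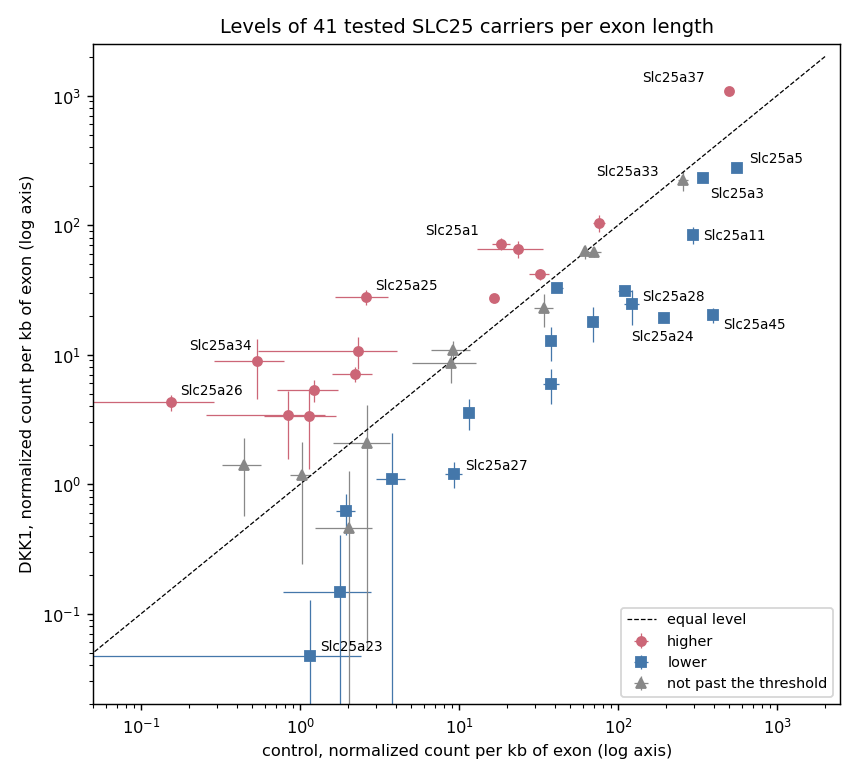
Mean normalized count per kb of exon of 41 tested SLC25 carriers in control (x) and DKK1 (y), both log axes, with bars of 1 SD over 3 libraries and a dashed line of equal level. Slc25a37 (495 to 1076) lies above the line, and Slc25a45 (393 to 20.4) and Slc25a24 (194 to 19.3) lie far below it.

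Among the carriers of adenine nucleotides and phosphate, 2 of 6 tested members rose (Slc25a4 and Slc25a25) and 4 fell (Slc25a3, Slc25a5, Slc25a23 and Slc25a24). Across all genes tested, 35.1% were higher and 36.1% lower, and each count by role below is to be read beside these shares. Slc25a5 exchanges cytosolic ADP for matrix ATP and was the main ADP/ATP carrier transcript of these cells. Its control libraries held 965, 912 and 881 normalized counts and its DKK1 libraries 438, 452 and 464. The groups did not overlap, and Slc25a5 (ENSMUSG00000016319.4, chromosome X, 36795651 to 36798807, plus strand) fell 2.04-fold from 919 ± 42.8 to 451 ± 12.8 (log2 change -1.02 with an SE of 0.07, limma adjusted p = 1.45e-06). Slc25a4, the ADP/ATP carrier best known from heart and muscle, rose from 5.40 ± 4.13 to 25.3 ± 7.03 (log2 change 2.20, limma adjusted p = 0.00394). The level of Slc25a5 was 439.5, 90.7 and 223 times that of Slc25a4 in the control libraries and 16.8, 25.3 and 14.6 times in the DKK1 libraries, as normalized counts not corrected for length. Close copies of Slc25a5 exist, and the way the authors' counting treated reads shared between copies was not given; the pseudogene Slc25a5-ps stood at 0 in 5 libraries and 1.49 in DKK1 library 1. Slc25a31, the testis ADP/ATP carrier, had 0 reads, which allows a mean of up to 1.06 in control and 0.92 with DKK1 for counting error alone.

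Slc25a3 brings phosphate into the matrix for ATP synthesis. It stood at 1857, 1862 and 1963 in control and at 1289, 1301 and 1235 with DKK1, with no overlap. Slc25a3 (ENSMUSG00000061904.13, chromosome 10, 91116574 to 91124059, minus strand) fell 1.49-fold (log2 change -0.57 with an SE of 0.06, limma adjusted p = 2.18e-05). With equal totals the change was -0.04 and was not called (adjusted p = 0.571). The summed normalized counts that this scaling makes equal were 9706276 to 9775231 in control and 6521100 to 7126726 with DKK1.

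The calcium-regulated ATP-Mg/phosphate carriers, which set the total pool of adenine nucleotides in the matrix, changed places. Slc25a24 held 656, 637 and 701 normalized counts in control and 61.9, 65.9 and 71.0 with DKK1. It fell 10.03-fold from 665 ± 33.3 to 66.3 ± 4.596 (log2 change -3.31 with an SE of 0.11, limma adjusted p = 7.06e-09; ENSMUSG00000040322.11, chromosome 3, 109123149 to 109168457, plus strand). Slc25a25, a carrier of the same substrates, stood at 12.1, 26.8 and 22.7 in control and at 219, 247 and 190.2 with DKK1. It rose 10.7-fold from 20.5 ± 7.60 to 219 ± 28.5 (log2 change 3.42 with an SE of 0.29, limma adjusted p = 4.51e-06; ENSMUSG00000026819.16, chromosome 2, 32414487 to 32451445, minus strand). In both genes the groups lay far apart, in opposite directions. Per kb of exon, Slc25a24 stood at 194 ± 9.70 in control and 19.3 ± 1.34 with DKK1, and Slc25a25 at 2.61 ± 0.966 and 27.8 ± 3.63. The ratio of Slc25a24 to Slc25a25 normalized counts, not corrected for length, was 54.3, 23.7 and 31.0 in control. With DKK1 it was 0.282, 0.267 and 0.373, and no scaling of whole libraries can move this ratio. This ratio was chosen after the values were seen; with 3 libraries a group an exact permutation test cannot give a two-sided p below 0.1, the value it gave here. The annotation has 379 exon bases of Slc25a25 (4.82%) on the strand opposite to exons of Naif1, so reads there may belong to either gene. Slc25a23, another of these carriers, had 18 control reads, 14 of them in library 3, and 1 DKK1 read, a DKK1 to control ratio with a 95% exact counting interval of 0.00115 to 0.304 (limma adjusted p = 0.0192). Its log2 change was -2.15, and without control library 3 it was -1.42 and did not pass (adjusted p = 0.053), nor without DKK1 library 3 (adjusted p = 0.0603). Slc25a41 had 0 reads.

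Because Slc25a24 and Slc25a25 moved in opposite directions, the sequences around their starts are shown, 250 bases before to 50 after each start (RefSeq, GRCm38.p6), 5′ to 3′ on the gene's strand. Capitals mark matches on either strand to any of the 6 motifs searched. These were the E-box CACGTG, the NRF1 motif GCGCATGCG, the cyclic AMP response element TGACGTCA, the AP-1 motif TGANTCA, the core of the antioxidant response element TGACNNNGC and the CCAAT box CCAAT. The window of Slc25a24 (chr3:109122899-109123198, plus strand) holds none of these letters. Slc25a25 has several starts, of which the outermost (chr2:32451421-32451720, minus strand) holds the antioxidant core at positions 151 and 220 and CCAAT at 63, 105 and 197, counted from 1 at the 5′ end. An inner start (chr2:32424017-32424316, minus strand) holds the cyclic AMP response element at 101 and CCAAT at 173. Between them lies another start (chr2:32431102-32431401, minus strand), whose sequence is not printed. It holds CCAAT at 165 and 219 and no other of the motifs searched. These are matches of letters only, and which start was used was not measured.
Slc25a24: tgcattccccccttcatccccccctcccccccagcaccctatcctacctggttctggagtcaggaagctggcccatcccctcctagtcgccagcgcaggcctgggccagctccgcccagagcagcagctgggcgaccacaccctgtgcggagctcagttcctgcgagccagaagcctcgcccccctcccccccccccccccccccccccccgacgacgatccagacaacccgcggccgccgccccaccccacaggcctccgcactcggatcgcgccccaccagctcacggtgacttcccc
Slc25a25, outermost start: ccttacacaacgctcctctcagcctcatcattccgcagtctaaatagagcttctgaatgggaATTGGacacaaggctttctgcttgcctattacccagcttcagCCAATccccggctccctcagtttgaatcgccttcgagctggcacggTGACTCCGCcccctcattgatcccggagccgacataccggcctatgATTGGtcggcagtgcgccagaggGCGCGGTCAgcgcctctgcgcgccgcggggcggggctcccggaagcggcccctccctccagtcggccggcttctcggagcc
Slc25a25, inner start: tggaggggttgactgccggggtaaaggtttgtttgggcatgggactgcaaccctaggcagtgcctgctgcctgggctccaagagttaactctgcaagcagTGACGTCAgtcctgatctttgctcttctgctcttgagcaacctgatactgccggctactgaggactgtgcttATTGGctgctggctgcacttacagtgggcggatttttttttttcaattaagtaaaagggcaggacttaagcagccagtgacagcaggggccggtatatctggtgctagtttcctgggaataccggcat

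Of the carriers of di- and tricarboxylates, 2 of 3 tested rose and 1 fell, beside 35.1% and 36.1% of all genes tested. Slc25a1 exports citrate, the source of cytosolic acetyl-CoA for fatty acid and sterol synthesis. Its level was 36.2, 45.8 and 37.4 in control and 136, 169 and 160.0 with DKK1. It rose 3.89-fold from 39.8 ± 5.21 to 155 ± 17.2 (log2 change 1.93 with an SE of 0.18, limma adjusted p = 8.48e-06; ENSMUSG00000003528.16, chromosome 16, 17925223 to 17928219, minus strand). Slc25a10, the dicarboxylate carrier that exchanges malate or succinate for phosphate, rose from 4.22 ± 1.74 to 18.3 ± 3.49 (log2 change 1.94, limma adjusted p = 0.00284). Slc25a11 moved the other way. It swaps oxoglutarate for malate in the malate-aspartate shuttle and stood at 634, 649 and 589 in control and at 204, 181 and 149 with DKK1. It fell 3.50-fold from 624 ± 31.1 to 178 ± 27.5 (log2 change -1.81 with an SE of 0.12, limma adjusted p = 1.04e-06; chromosome 11, 70644196 to 70647479, minus strand). The annotation has 189 of its exon bases (8.92%) opposite to exons of Rnf167, whose mean over the 6 libraries was 1441. The control libraries held 17.5, 14.2 and 15.7 normalized counts of Slc25a11 for each of Slc25a1, and the DKK1 libraries 1.51, 1.07 and 0.934. Slc25a21, the oxodicarboxylate carrier, had 0 reads.

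Of 9 tested amino acid carriers 2 rose, 3 fell and 4 did not pass, where 35.1% and 36.1% of all genes tested rose and fell. The aspartate/glutamate carriers, the other arm of the malate-aspartate shuttle, pointed in opposite directions, though only the fall of Slc25a12 was clear of the threshold. Slc25a12 (aralar) stood at 265, 285 and 281 in control and at 113, 61.8 and 105 with DKK1, and the groups did not overlap. It fell 2.97-fold from 277 ± 10.7 to 93.2 ± 27.5 (log2 change -1.61 with an SE of 0.21, limma adjusted p = 0.000117). Slc25a13 (citrin), known mainly from liver, rose from 4.32 ± 2.07 to 12.7 ± 7.74 at the threshold itself (limma adjusted p = 0.0499). Its DKK1 library 1 held 21.6 and the others 8.24 and 8.17, and without that library the change did not pass (adjusted p = 0.171). The call of Slc25a13 was lost under 10 of the alternatives. Among them were a pseudocount of 0.1 (adjusted p = 0.0694) and median-of-ratios scaling (adjusted p = 0.0585).

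Slc25a44 carries branched-chain amino acids. It was at 256, 261 and 299.5 in control and at 381, 426 and 314 with DKK1, so that the lowest DKK1 library lay just above the highest control library. It rose 1.37-fold from 272 ± 23.8 to 373 ± 56.5 (log2 change 0.45 with an SE of 0.13, limma adjusted p = 0.0121). Slc25a38 brings in glycine, the first substrate of heme synthesis, and overlapped between groups, at 166, 165 and 178 in control and 169, 195 and 152 with DKK1 (log2 change 0.012 with an SE of 0.13, limma adjusted p = 0.939). With equal totals it was called higher (0.54, adjusted p = 0.00333).

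Transcripts of the other amino acid carriers were scarce. Slc25a22, a glutamate carrier, fell from 69.0 ± 3.58 to 21.4 ± 5.64 (log2 change -1.68, limma adjusted p = 0.000312). Slc25a29, a carrier of basic amino acids, fell from 9.84 ± 2.00 to 2.83 ± 3.59 (limma adjusted p = 0.0345), a call lost on leaving out any control library or DKK1 library 1 or 3 (adjusted p = 0.0675 to 0.106). The change was -1.96 with all libraries, -1.24 without DKK1 library 1 and -2.72 without DKK1 library 2. The ornithine carriers Slc25a15 (2.50 ± 0.701 and 7.94 ± 4.75) and Slc25a2 (3.61 ± 1.42 and 2.83 ± 2.75) and the glutamate carrier Slc25a18 (17.0 ± 7.37 and 16.4 ± 4.82) did not pass. Slc25a15 lay at the threshold (adjusted p = 0.0518; 0.0475 without DKK1 library 3).

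Carriers of acyl groups, cofactors and nucleotides split, with 2 of 10 tested members higher, 4 lower and 4 not passed. The shares over all genes tested were 35.1% higher and 36.1% lower. Slc25a20 exchanges acylcarnitine for carnitine and so feeds fatty acid oxidation. It stood at 508, 595 and 505 in control and at 157, 147 and 148 with DKK1. It fell 3.57-fold from 536 ± 51.1 to 150.4 ± 5.29 (log2 change -1.82 with an SE of 0.10, limma adjusted p = 2.71e-07; chromosome 9, 108662088 to 108684641, plus strand). Slc25a16, linked to coenzyme A in the matrix, held 194, 158 and 193 normalized counts in control and 36.5, 19.2 and 30.2 with DKK1. It fell 6.34-fold (log2 change -2.66 with an SE of 0.25, limma adjusted p = 9.19e-06). In both genes every control library lay more than 3 times above every DKK1 library. Slc25a42, a coenzyme A carrier, fell from 11.7 ± 1.56 to 3.74 ± 1.30 (limma adjusted p = 0.0118, or 0.0635 with equal totals). Slc25a17, a peroxisomal carrier of coenzyme A, FAD and NAD, stood at 97.3 ± 12.6 and 65.4 ± 18.8 and lay at the threshold (log2 change -0.60, adjusted p = 0.0504; 0.0329 without DKK1 library 3).

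The higher members of this group were Slc25a32 and Slc25a26. Slc25a32, which brings in folate and FAD, was at 105, 94.95 and 101 in control and at 169.9, 169 and 161 with DKK1. Its libraries were close together within each group, and it rose 1.66-fold from 101 ± 5.29 to 167 ± 4.99 (log2 change 0.72 with an SE of 0.12, limma adjusted p = 0.000618). Slc25a26, the carrier of the methyl donor S-adenosylmethionine, had 2 reads over the control libraries and 69 over the DKK1 libraries. The ratio of its group means was 27.8 with a 95% exact counting interval of 7.95 to 251 (log2 change 3.70 with an SE of 0.48, limma adjusted p = 9.16e-05).

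The carriers of pyrimidine nucleotides and NAD+ showed small differences. Slc25a36, a pyrimidine nucleotide carrier, was at 407, 424 and 363 in control and 313, 324 and 305 with DKK1. It fell 1.27-fold (log2 change -0.34 with an SE of 0.09, limma adjusted p = 0.00963), and with equal totals the change was 0.19 and did not pass. Its relative Slc25a33 overlapped between groups, at 449, 514 and 486 in control and 388, 503 and 369.9 with DKK1 (log2 change -0.21 with an SE of 0.12, limma adjusted p = 0.157). Without DKK1 library 2, the highest of the 3, it was called lower (-0.35, adjusted p = 0.00466), whereas with equal totals it was called higher (0.32). Slc25a51, the NAD+ carrier, held 388, 346 and 433 in control and 313, 371 and 345 with DKK1, overlapping (log2 change -0.18 with an SE of 0.11, limma adjusted p = 0.18; 0.35 and called higher with equal totals). The ratio of Slc25a33 to Slc25a36 was 1.10, 1.21 and 1.34 in control and 1.24, 1.55 and 1.21 with DKK1, also overlapping.

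Of the 4 iron and glutathione carriers 3 rose and 1 fell, where 35.1% and 36.1% of all genes tested were higher and lower. These 4 carriers included Slc25a37, the member with the highest normalized count. The mitoferrins bring iron into the matrix for heme and iron-sulphur clusters; Slc25a37 (mitoferrin-1) is needed in red cell precursors and Slc25a28 (mitoferrin-2) serves other cells. Slc25a37 stood at 3001, 2950.3 and 2995 in control and at 6229, 6916 and 6289 with DKK1. The groups lay far apart, and it rose 2.17-fold from 2982 ± 27.8 to 6478 ± 381 (log2 change 1.12 with an SE of 0.06, limma adjusted p = 1.24e-07; ENSMUSG00000034248.8, chromosome 14, 69241848 to 69285112, minus strand). With equal totals its change was 1.65. Of its exon bases 381 (6.33%) lie opposite to the unverified gene Gm31748, whose mean of 33.4 is small beside that of Slc25a37. Slc25a28 was at 508, 454 and 407 in control and 114, 60.4 and 99.6 with DKK1. It fell 4.99-fold from 456 ± 50.8 to 91.4 ± 27.7 (log2 change -2.35 with an SE of 0.22, limma adjusted p = 9.8e-06; ENSMUSG00000040414.9, chromosome 19, 43663801 to 43674881, minus strand). Slc25a37 exceeded Slc25a28 by 5.90, 6.50 and 7.36 times in the control libraries and by 54.6, 114 and 63.1 times in the DKK1 libraries, the highest being library 2. Of the erythroid markers, Tfrc rose from 136 ± 15.4 to 5608 ± 312, while the 7 that fell included Hbb-bs, Hba-a1, Hbb-bt, Slc4a1, Ermap and Epor, and Hba-a2, Alas2 and Gata1 did not pass. With equal totals 3 erythroid markers were lower, and Hbb-bs, Hba-a1, Hbb-bt and Ermap did not pass. Summed erythroid marker levels were 1805 to 1910 in control and 5876 to 7436 with DKK1, where Tfrc made up most of the sum.

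The glutathione carriers rose as well. Slc25a39 stood at 66.99, 91.6 and 34.5 in control and at 199, 149.7 and 192 with DKK1. Control libraries varied but none reached the DKK1 libraries, and it rose 2.80-fold from 64.4 ± 28.7 to 180.2 ± 26.6 (log2 change 1.57 with an SE of 0.32, limma adjusted p = 0.00174). Its close relative Slc25a40 rose from 18.6 ± 5.24 to 59.1 ± 7.61 (log2 change 1.64, limma adjusted p = 0.000594). Their ratio overlapped between groups, at 5.08, 4.82 and 1.46 in control and 3.56, 2.79 and 2.83 with DKK1.

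Slc25a37 took a larger share of the counts of the members named Slc25a with DKK1, as it rose while the sum of the other members was lower. It made up 24.1%, 23.6% and 24.1% of their summed normalized counts in the control libraries and 53.3%, 55.4% and 54.2% in the DKK1 libraries. No scaling of whole libraries can move this difference of 30.3 percentage points. Divided by exon length, its share was 14.7% ± 0.272 and 40.9% ± 0.790. Over the same libraries the mean share of Slc25a3 went from 15.2% to 10.7%, that of Slc25a5 from 7.38% to 3.79%, that of Slc25a45 from 8.72% to 0.473% and that of Slc25a24 from 5.34% to 0.557%. The sum of all members was 12447 ± 38.5 normalized counts in control and 11926 ± 486 with DKK1. Without Slc25a37 it was 9465 ± 64.1 and 5448 ± 127. Relative to depth, as CPM of recovered reads, the sums were 1279 ± 6.91 and 1770 ± 20.6 with Slc25a37, and 973 ± 8.74 and 809 ± 28.0 without it. These shares were chosen after the values were seen and carry no test. They and the sums leave out the 5 listed family genes under other names, Ucp2 among them. Those genes summed to 6272 to 6390 normalized counts in control and 1315 to 1357 with DKK1. The shares and the small difference in the sum of all members thus hold only for genes named Slc25a.

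**Figure D4:**
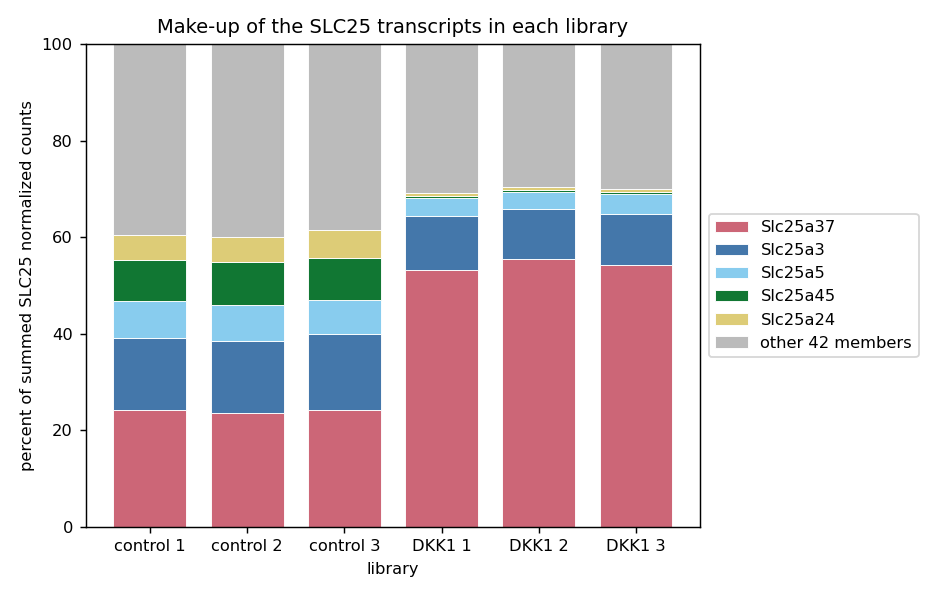
Percent of the summed normalized counts of the members named Slc25a in each library taken by its leading carriers, stacked to 100 for 3 control and 3 DKK1 libraries. Slc25a37 takes 23.6% to 24.1% in control and 53.3% to 55.4% with DKK1.

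The carriers related to uncoupling proteins were lower or did not pass under the authors' scaling. Slc25a30, of this branch and known from kidney, held 339, 301 and 318 normalized counts in control and 69.3, 65.9 and 111 with DKK1. It fell 3.89-fold from 319 ± 19.4 to 82.1 ± 25.1 (log2 change -1.99 with an SE of 0.20, limma adjusted p = 1.47e-05). Slc25a27 (UCP4) fell from 36.7 ± 4.51 to 4.72 ± 1.07 (log2 change -2.73, limma adjusted p = 6.61e-05). Slc25a14 (UCP5) stood at 21.7 ± 5.94 and 25.4 ± 4.38 and did not pass (adjusted p = 0.511), though with equal totals it was called higher (adjusted p = 0.0492). Ucp2, an uncoupling protein gene that belongs to the family under another name, fell from 5938 ± 64.0 to 270 ± 6.14 (log2 change -4.46, limma adjusted p = 6.12e-11). In control it was more abundant than any member named Slc25a in normalized counts, which are not corrected for length.

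Of 7 tested members of the outer membrane or with less known substrates, 3 rose, 2 fell and 2 did not pass. Over all genes tested 35.1% were higher and 36.1% lower. Slc25a45, whose place in metabolism is less well described, showed the largest fall of the 42 tested members on the log2(normalized count + 1) scale. With a pseudocount of 0.1 it stood at -4.28, and Slc25a35 and Slc25a23, which had few reads, at -4.55 and -4.37. It stood at 1053, 1124 and 1078 in control and at 62.6, 48.1 and 58.0 with DKK1. It fell 19.3-fold from 1085 ± 35.9 to 56.2 ± 7.42 (log2 change -4.25 with an SE of 0.12, limma adjusted p = 2.72e-09; ENSMUSG00000024818.16, chromosome 19, 5877808 to 5885878, plus strand). The window around its start is shown for that reason (RefSeq, GRCm38.p6, chr19:5877572-5877871, plus strand, 5′ to 3′); it holds none of the 6 motifs, so no letters are in capitals.
Slc25a45: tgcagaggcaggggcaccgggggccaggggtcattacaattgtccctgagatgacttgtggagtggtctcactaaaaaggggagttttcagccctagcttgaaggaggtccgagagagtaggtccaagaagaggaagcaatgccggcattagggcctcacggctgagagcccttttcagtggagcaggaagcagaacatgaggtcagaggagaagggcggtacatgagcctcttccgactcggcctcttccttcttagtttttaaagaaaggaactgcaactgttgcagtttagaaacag

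Slc25a46, an outer membrane member involved in mitochondrial shape, was at 175, 199.96 and 149 in control and 202, 247 and 229 with DKK1. Its groups nearly touched, and it rose 1.30-fold from 174 ± 25.6 to 226 ± 22.8 (log2 change 0.38 with an SE of 0.14, limma adjusted p = 0.0376). The call was lost without control library 1 or 3 or DKK1 library 2 or 3 (adjusted p = 0.0817 to 0.134), by edgeR (0.0609) and by DESeq2 (0.121). It was also lost with median-of-ratios scaling (limma adjusted p = 0.0685) and with no trend or robust fitting (0.0809). Slc25a34 rose from 1.43 ± 0.664 to 23.7 ± 11.7 (log2 change 3.28, limma adjusted p = 0.000217), with 4 control reads and 71 DKK1 reads. Slc25a47, described in liver, rose from 2.51 ± 1.75 to 10.2 ± 5.55 (limma adjusted p = 0.0227). That call was lost without control library 1 or 3 or DKK1 library 2 (adjusted p = 0.0647 to 0.0795). Slc25a35 fell from 19 reads to 2, a ratio with a 95% exact counting interval of 0.0103 to 0.377 (limma adjusted p = 0.00601), and 31.3% of its exon bases lie opposite to Rangrf. Slc25a43 (3.61 ± 1.42 and 0.817 ± 1.41, adjusted p = 0.0502) and Slc25a53 (8.12 ± 1.23 and 9.32 ± 7.39) did not pass. Without DKK1 library 3 Slc25a43 was called lower (adjusted p = 0.0115).

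RefSeq windows of 300 bases were matched for 36 of the 47 members. The 11 without one included Slc25a2, Slc25a26, Slc25a27, Slc25a32, Slc25a35, Slc25a37, Slc25a41, Slc25a44, Slc25a46 and Slc25a51. CCAAT was present in a window of 7 of 9 higher members, 8 of 15 lower members and 3 of 8 members that did not pass, and in 41.1% of the 27025 genes with windows. The antioxidant core was present in 2 higher members (Slc25a25 and Slc25a40), 3 lower members (Slc25a3, Slc25a5 and Slc25a23) and 4 that did not pass, and in 13.99% of all genes. CACGTG was present in Slc25a1 and Slc25a13 among the higher members, in Slc25a36 among the lower and in 3 that did not pass, and in 8.09% of all genes. TGACGTCA was found in Slc25a25 and Slc25a36 (2.03% of all genes), TGANTCA in Slc25a13 and Slc25a11 (8.97%), and GCGCATGCG in no member (1.95%). These counts describe letters in 1 or more windows a gene; motifs may overlap, and no binding was measured.

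Genes that work beside the carriers were counted from lists by the same fit. Across all genes tested, 35.1% were higher and 36.1% lower, or 43.6% and 29.2% with equal totals. The counts of this and the following lists are to be read beside these shares. Of 11 tested genes for the import of carriers into mitochondria, 9 were higher, 1 lower and 1 did not pass, with a median log2 change of 2.37. Tomm20, an import receptor, rose from 200 ± 14.3 to 1474 ± 175, and Tomm70a, the receptor that recognises carriers, from 142 ± 21.7 to 555 ± 41.8. Tomm22, their partner in the outer membrane, fell from 623 ± 22.3 to 450 ± 44.99, a call lost with equal totals.

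Other channels and carriers of mitochondria, which lie outside the family, had 7 of 12 members higher, 4 lower and 1 not passed. Sfxn5, a sideroflexin, fell from 3350 ± 68.7 to 22.1 ± 9.84. Vdac2, an outer membrane pore, rose from 997 ± 92.7 to 1297 ± 33.3, while Mpc1, of the pyruvate carrier, fell from 1206 ± 67.2 to 272 ± 8.50. Of 3 tested family members under other names 1 rose (Mtch2, an outer membrane insertase, from 129 ± 22.2 to 848 ± 32.8), 1 fell (Ucp2) and Mtch1 did not pass (268 ± 46.7 and 211 ± 4.18).

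Beside the mitoferrins, the enzymes and transporters of heme and iron-sulphur clusters counted 5 higher, 4 lower and 4 not passed of 13, or 10 higher and 3 lower with equal totals. Alas1, the first enzyme of heme synthesis outside red cells, rose from 674 ± 61.9 to 1369 ± 55.9. Ppox, a later enzyme of that pathway, fell from 1122 ± 15.2 to 185 ± 26.4, and Iscu, the scaffold for iron-sulphur clusters, from 847 ± 31.1 to 313 ± 17.6.

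Beside the citrate, oxoglutarate and aspartate/glutamate carriers, 2 of 9 genes of citrate metabolism and the malate-aspartate shuttle were higher, 4 lower and 3 did not pass. With equal totals 5 were higher and 2 lower. Acly, which splits the exported citrate, stood at 1024 ± 60.1 and 1098 ± 84.5, a difference that did not pass (adjusted p = 0.302), though with equal totals it was called higher (log2 change 0.63). Mdh2, mitochondrial malate dehydrogenase, fell from 875 ± 43.1 to 739 ± 30.8, but with equal totals it was called higher (log2 change 0.29). Cs, citrate synthase, fell from 834 ± 38.7 to 468 ± 30.3.

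Of 13 genes of carnitine, coenzyme and one-carbon metabolism 5 were higher, 5 lower and 3 did not pass, or 6 higher and 2 lower with equal totals. Cpt1a, which makes the acylcarnitines that Slc25a20 carries, fell from 1777 ± 41.4 to 129.99 ± 17.9 (log2 change -3.77, limma adjusted p = 2.76e-09). Pank3, which begins coenzyme A synthesis, rose from 432 ± 38.3 to 1862 ± 8.62. Nadk2, the mitochondrial NAD kinase, fell from 352 ± 11.8 to 170 ± 24.6.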

How the data were processed

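RNA sequencing of 6 libraries, 3 control and 3 DKK1, was grouped by the sample titles. The authors deposited a signal, a normalized count for each gene in each library, per the file headers; reads were mapped to mm10 per the submitters' processing notes, and the aligner, counting tool, annotation and size factors were not given in the sources used here. In addition, 3 columns of per-sample values fit no sample here and were not used; whether they entered the authors' size factors, on which changes between groups rest, is unknown. Values were whole multiples of 1 read in each library (100% within a tolerance of 0.001), so reads were recovered, with 5188116 to 9851961 per library; counting intervals (95%, exact) and floors (3 reads over a group) cover counting error alone. Groups were compared with limma 3.58.1 (R 4.3.3; empirical Bayes with trend and robust options) after taking log2(normalized count + 1), a scale that understates changes of low genes. Genes with at least 1 in at least 3 libraries entered (16265), and two-sided p-values were adjusted by Benjamini-Hochberg, calls being those below 0.05. Folds are ratios of group means. The script was tested on simulated data in which only a small part of the genes changed, in random directions. Far more genes were called here, so that test does not bear on the scaling between groups. Alternatives were the replicate block, pseudocounts of 0.1 and 10, other filters (none, or 10 in 3 libraries), equal totals, median-of-ratios scaling, no trend or robust fitting, a log2 change of at least 1, edgeR 4.0.16 and DESeq2 1.42.0 on recovered reads, and each library left out. Values of 1 member and of 1 marker are not reported here; every other member was named, with values in every library where a group mean reached 100; from the lists of related genes the 3 of highest mean were named, and Ucp2, Slc25a5-ps and genes overlapping members as well. Members and lists were chosen with earlier results of these data known. Gene positions and exon lengths are from GENCODE M21 (GRCm38), matched without version.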

Additional observations from a re-analysis of the deposited data

How the results depend on the processing

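Over 41 members and 17 alternatives, 607 member values kept their direction and side of the threshold, 41 lost a call, 15 gained one and 24 changed sign; 21 members kept direction and call under all alternatives of scaling, fit and library, and no called member became called in the other direction. Scaling to equal totals moved the members' median log2 change from -0.20 to 0.33, the share of calls that were higher from 45.2% to 59.4% in the members and from 49.3% to 59.9% over all genes, and Slc25a33, Slc25a36, Slc25a51 and Slc25a53 to 0.32, 0.19, 0.35 and 0.43. The other sign changes were all in members that did not pass. With a pseudocount of 10, Slc25a18 stood at -0.0077 and Slc25a53 at 0.031. With median-of-ratios scaling, Slc25a18 stood at -0.049 and Slc25a38 at -0.048. By edgeR, Slc25a18, Slc25a38 and Slc25a53 stood at -0.13, -0.047 and 0.028, and by DESeq2 at -0.13, -0.051 and 0.067. With each library left out in turn, 11 to 14 members were higher and 15 to 18 lower, and log2 changes ranged from -1.15 to 0.20 for Slc25a2, from -0.31 to 0.31 for Slc25a18, from -0.082 to 0.098 for Slc25a38 and from -0.58 to 0.26 for Slc25a53; the cause was not tested. With the replicate block, 13 members were higher and 17 lower, Slc25a13 losing its call (adjusted p = 0.0683). Whether equal numbers pair the libraries is not stated in the labels and was not tested. Deviations of same-numbered libraries correlated at 0.021, 0.049 and 0.033 over 11468 genes. Libraries of other numbers correlated at -0.044 to 0.011, and each library correlated best with its own number. Deviations were taken from the mean of each group, so these correlations depend on each other and cannot decide the pairing. By edgeR 13 and by DESeq2 11 members were higher and 17 lower in both. At a log2 change of at least 1 the counts were 11 and 15. Of all 16265 genes, 5409 to 5651 were higher and 5483 to 5895 lower with a library left out. The replicate block gave 5630 and 5817, edgeR 5503 and 5897, and DESeq2 5138 and 5541. At a log2 change of at least 1, 4534 of all genes were higher and 4917 lower. The members named at the threshold (Slc25a13, Slc25a15, Slc25a17 and Slc25a43) are all among the 21 with group means below 100; the part of depth in this was not tested.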
